A study of Mus musculus with 18 samples.

Results

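The genes described here are 10 cytokine genes of T cells, Ifng, Tnf, Il2, Il21, Il10, Il17a, Il17f, Il22, Il4 and Il13, out of 37236 genes with values. They were chosen by symbol, as cytokines for which control by NR2F6 in T cells is of interest, and not by their values. NR2F6 is an orphan nuclear receptor known as a repressor in T cells, where it opposes the binding of NFAT and AP-1, the transcription factors that a T cell receptor signal activates, at cytokine genes. IFN-γ and TNF are the effector cytokines that act on tumor cells and macrophages, IL-2 is the growth factor of T cells, IL-21 is a helper cytokine of the same receptor family, and IL-10 restrains inflammation. IL-17A, IL-17F and IL-22 mark the Th17 type of response, and IL-4 and IL-13 the type 2 response.

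CD3+ tumor-infiltrating lymphocytes (TILs) were taken from B16-OVA tumors, a mouse melanoma line made to carry ovalbumin, 14 days after 500000 cells were injected into C57BL/6 mice. The 4 groups were Nr2f6+/+ mice given IgG2b, the control antibody (3 samples), Nr2f6-/- mice given IgG2b (3 samples), Nr2f6+/+ mice given αPD-L1, which blocks an inhibitory ligand of T cells (6 samples), and Nr2f6-/- mice given αPD-L1 (6 samples), with doses of 0.5 mg from day 3. The study's own legend counts fewer αPD-L1 samples than the labels do, and the labels were followed. Nr2f6 was deleted in every cell of the Nr2f6-/- mice, tumor stroma included, and not only in T cells. CD4 and CD8 T cells were pooled before the libraries were made, and in such bulk RNA fewer cells of a type and less RNA per cell cannot be told apart. The labels do not say which samples came from separate mice, so that p-values measure the spread between these samples.

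Between 12473391 and 18609482 reads per sample were counted on genes. A floor of 3 reads was therefore worth between 2.46 and 3.64 normalized counts, the deposited unit, in which the reads of each sample are divided by a size factor. The floor covers counting error only. Nr2f6 had 0 reads in all 9 samples labelled Nr2f6-/- and at least 23 reads in each Nr2f6+/+ sample. T cell markers were high in every sample: the 10 genes of the list, Cd3e among them, summed to between 89176 and 150921 normalized counts. The 14 macrophage and monocyte markers moved with the treatment. Their sum ranged from 16369 to 20855 in Nr2f6+/+ IgG2b, from 9860 to 13368 in Nr2f6-/- IgG2b, from 1677 to 6815 in Nr2f6+/+ αPD-L1 and from 929 to 2626 in Nr2f6-/- αPD-L1. The sum of the T cell markers ranged over the same groups from 89176 to 105860, from 116542 to 122402, from 95486 to 146325 and from 128262 to 150921. The part of either list in the values below was not tested beyond a scaling to the T cell markers. That scaling moved the median of all genes between the genotypes with αPD-L1 from −0.0049 to −0.27 on the log2 scale, and list values under it are read against −0.27. Replicates 4 to 6 of the αPD-L1 groups carry a second range of library numbers in the labels, so that IgG2b and αPD-L1 can be compared within the first library set only.

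Because NR2F6 is described as acting on NFAT and AP-1 at cytokine genes, the bases before the start of the gene are shown for 4 of the members with reads in every group. The RefSeq promoter table (GRCm38.p6) held 9 of the 10 members, all but Il10. The letters searched, on both strands, were GGAAA, the core of NFAT sites, TGANTCA, an AP-1 site, and AGGTCA, the hexamer that NR2F-type receptors recognise. Each line gives the 250 bases before the start, 5′ to 3′ on the strand of the gene, with matches to GGAAA or its reverse complement TTTCC in capitals. The windows are chr10:118440796-118441045 (plus strand) for Ifng, chr17:35202008-35202257 (minus strand) for Tnf, chr3:37125955-37126204 (minus strand) for Il2 and chr3:37232637-37232886 (minus strand) for Il21.
Ifng: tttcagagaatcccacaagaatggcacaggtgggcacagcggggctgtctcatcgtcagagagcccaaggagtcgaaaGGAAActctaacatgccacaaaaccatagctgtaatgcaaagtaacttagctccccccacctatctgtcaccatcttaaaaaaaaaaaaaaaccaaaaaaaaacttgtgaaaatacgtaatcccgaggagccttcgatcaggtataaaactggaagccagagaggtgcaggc
Tnf: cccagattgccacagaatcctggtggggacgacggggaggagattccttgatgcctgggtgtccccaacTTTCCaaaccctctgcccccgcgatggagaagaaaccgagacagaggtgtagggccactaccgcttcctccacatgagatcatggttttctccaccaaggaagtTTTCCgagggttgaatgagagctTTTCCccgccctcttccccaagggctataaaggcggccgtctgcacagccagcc
Il2: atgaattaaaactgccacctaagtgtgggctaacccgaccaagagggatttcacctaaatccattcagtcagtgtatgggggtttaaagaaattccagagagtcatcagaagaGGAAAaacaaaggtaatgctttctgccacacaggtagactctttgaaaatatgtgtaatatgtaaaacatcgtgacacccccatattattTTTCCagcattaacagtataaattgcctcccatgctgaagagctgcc
Il21: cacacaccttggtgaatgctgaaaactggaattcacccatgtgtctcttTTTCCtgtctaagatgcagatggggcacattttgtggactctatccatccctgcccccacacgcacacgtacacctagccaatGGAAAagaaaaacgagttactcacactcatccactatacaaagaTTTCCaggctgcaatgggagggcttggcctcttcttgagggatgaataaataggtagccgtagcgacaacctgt

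The Ifng window held 1 match to the NFAT core, Il2 held 2, and Tnf and Il21 held 3 each. The core is short, and 55.6% of 27025 promoters of this length held it. No match to TGANTCA or AGGTCA was found in these 4 windows. Among the other members, Il17a held 1 match to TGANTCA (in 6.87% of all promoters) and 1 to AGGTCA (in 13.8%), and Il17f held 1 to AGGTCA. The Il17f window (chr1:20784271-20784520, minus strand) lies inside the span of the gene given below. That match is therefore not before the start of this span. The NFAT core had 4 matches in the Il13 window, 2 in Il17f, 1 in Il22 and 0 in Il17a. Il4 had 5 in the window before its span and 0 in a window inside it. The Il22 window also lies inside the span of its gene. A match is a run of letters and not a bound site. Several members are neighbours in the genome: Il2 (chr3:37120713-37125954) and Il21 (chr3:37222759-37232636), Il17a (chr1:20730905-20734496) and Il17f (chr1:20777146-20785274), Il4 (chr11:53612460-53618665) and Il13 (chr11:53631323-53634702), and Il22 (chr10:118204584-118210047) and Ifng (chr10:118441046-118445894). Tnf lies at chr17:35199367-35202007 and Il10 at chr1:131019845-131024970.

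In these TILs the 10 cytokines split evenly into 5 with reads throughout and 5 at or near 0. Ifng, Il2, Il21 and Il10 had at least 19 reads in every sample, and Tnf had reads in 17 of 18. Il4 had 0 reads in all 18 samples, Il17a had reads in 1 sample, Il17f in 2, Il22 in 3 and Il13 in 6. Only the first 5 reached the mean of 10 normalized counts needed for the test, which was limma on log2(normalized count + 1) over the 11992 genes that did. Of the neighbours in the genome, both type 2 genes and both Il17 genes were low, Il2 and Il21 both had reads in every sample, and Il22 was near 0 beside Ifng.

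Ifng, the main cytokine by which T cells activate macrophages and raise MHC molecules on tumor cells, was lowest in Nr2f6+/+ mice with IgG2b, at 2730, 2076 and 3061 normalized counts. In Nr2f6-/- mice with IgG2b it was at 3620, 3934 and 3900. All 3 of these samples lay above the 3 of the Nr2f6+/+ group, and the 2 groups did not overlap, as for 14.2% of all genes tested. With αPD-L1 it was at 3744, 3810, 3617, 4909, 2662 and 4627 in Nr2f6+/+ mice and at 3736, 3707, 4700, 6697, 8672 and 3498 in Nr2f6-/- mice. The last 2 groups overlapped over most of their range, and the 2 highest values of all, 6697 and 8672, were Nr2f6-/- samples of the second library set.

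The means of Ifng were, in rising order, 2623 ± 501 (SD, n = 3) in Nr2f6+/+ IgG2b, 3818 ± 173 (SD, n = 3) in Nr2f6-/- IgG2b, 3895 ± 799 (SD, n = 6) in Nr2f6+/+ αPD-L1 and 5168 ± 2089 (SD, n = 6) in Nr2f6-/- αPD-L1. The 2 groups in the middle of this order had overlapping samples and were not tested against each other, and neither of the other neighbouring pairs passed the test. The log2 fold change of Nr2f6-/- against Nr2f6+/+ was 0.56 with IgG2b (standard error 0.29, limma adjusted p = 0.920) and 0.35 with αPD-L1 (standard error 0.20, 95% interval −0.07 to 0.76). That of αPD-L1 against IgG2b was 0.56 in Nr2f6+/+ mice (standard error 0.25, limma adjusted p = 0.621) and 0.35 in Nr2f6-/- mice (standard error 0.25, limma adjusted p = 0.709). The genotype difference with αPD-L1 was 0.11 within the first library set and 0.58 within the second, and within the first set αPD-L1 differed from IgG2b by 0.52 in Nr2f6+/+ and by 0.08 in Nr2f6-/- mice.

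Between the ends of this order, Nr2f6-/- with αPD-L1 against Nr2f6+/+ with IgG2b, every sample of the first group lay above every sample of the second, which held for 6.17% of all genes tested. Ifng had a log2 fold change of 0.91 (standard error 0.25, 95% interval 0.40 to 1.41) with a limma adjusted p of 0.0927. edgeR on the recovered reads gave 0.99 (adjusted p = 0.121) and DESeq2 0.98 (adjusted p = 0.0161), so that the gene passed the threshold in 1 of the 3 tools. Within the first library set it was 0.64 (limma adjusted p = 0.181). Of all genes, 0.617% passed it in limma and 1.48% in DESeq2 in this comparison. Scaled to the 10 T cell marker genes, the log2 fold change was 0.39 (limma adjusted p = 0.390) while the median over all genes went from −0.12 to −0.62, and the T cell marker sums of the 2 groups, given above, did not overlap.

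The CD8 markers were also higher between these groups. Cd8a, a chain of the CD8 coreceptor, ran from 8102 to 8327 normalized counts in Nr2f6+/+ IgG2b and from 11329 to 17120 in Nr2f6-/- αPD-L1, with no overlap. Its log2 difference was 0.67 (limma adjusted p = 0.196) and that of Cd8b1, the other chain, 0.75 (limma adjusted p = 0.132). Cd4 was at −0.26 (limma adjusted p = 0.927). Between the genotypes with αPD-L1, Cd8a was at 0.54, Cd8b1 at 0.67 and Cd4 at −0.12. The part of CD8 T cell RNA in the values of Ifng was not tested.

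**Figure D1:**
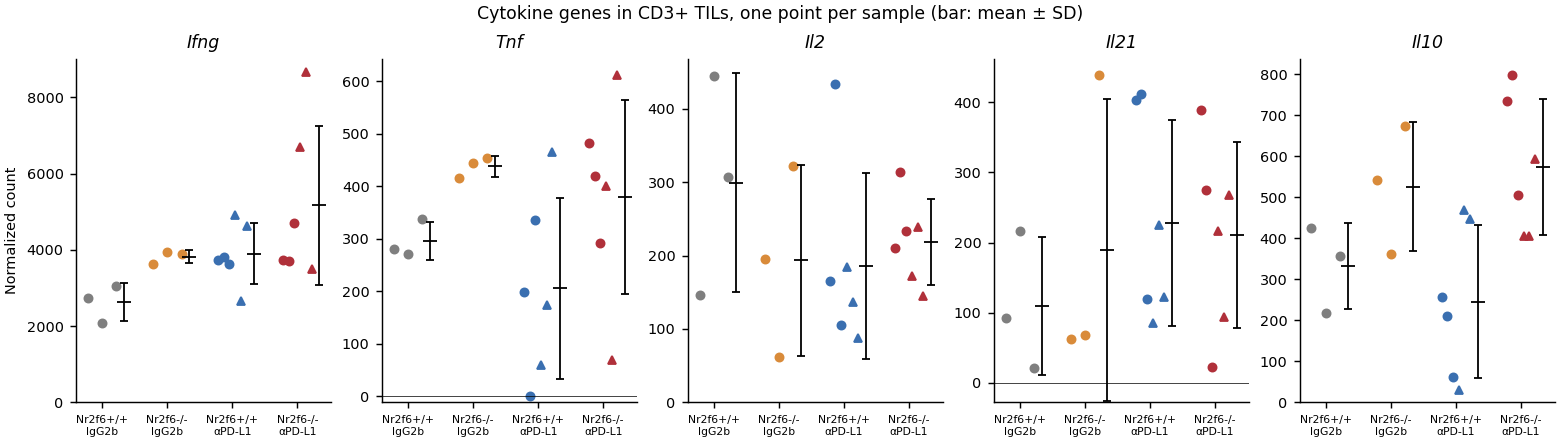
Normalized counts (vertical axis) of the 5 cytokine genes with reads throughout, by group. Each point is a sample. Circles are the first library set (replicates 1 to 3) and triangles the second (replicates 4 to 6). The black bar is the mean with the SD. Ifng in Nr2f6+/+ IgG2b lies between 2076 and 3061, below all samples of both Nr2f6-/- groups. Groups did not overlap for 14.2% of all genes against Nr2f6-/- IgG2b and 6.17% against Nr2f6-/- αPD-L1. In 1 Nr2f6+/+ αPD-L1 sample Tnf is at 0.

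Among the genes through which IFN-γ acts, none passed the test in limma. Of 12 genes for its receptor, signaling and induction, all 12 were tested and 0 passed in Nr2f6-/- against Nr2f6+/+ mice with αPD-L1 (limma), where 0.175% of all genes did. DESeq2 called 1 of them. In limma 7 were above 0 and 5 below, with a median log2 fold change of 0.13 beside −0.0049 over all genes. Scaled to the T cell markers, 3 were above and 9 below with a median of −0.15, beside −0.27 over all genes. In the second library set alone the median was −0.19.

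Of 21 IFN-γ target genes, 20 were tested and 0 passed in limma, with 12 above 0 and 8 below and a median of 0.17 on the log2 scale. Scaled to the T cell markers, 9 were above and 11 below, with a median of −0.10, beside −0.27 over all genes. Igtp and Ifi47, GTPases that IFN-γ induces, had the lowest p-values of the list, at 0.65 (standard error 0.17, limma adjusted p = 0.121) and 0.51 (standard error 0.16, limma adjusted p = 0.234). DESeq2 called both (adjusted p = 0.0116 and 0.0457) and no other gene of this list, where it called 1.53% of all genes. The differences were of like size between the genotypes with IgG2b, at 0.61 for Igtp (limma adjusted p = 0.872) and 0.62 for Ifi47 (limma adjusted p = 0.846). There 14 targets were above 0 and 6 below, with a median of 0.16 beside −0.06 over all genes. With αPD-L1 against IgG2b the median of the same targets was −0.02 in Nr2f6+/+ and 0.0013 in Nr2f6-/- mice. The receptor subunit Ifngr1 had a log2 fold change of −0.06 (standard error 0.26) between the genotypes with αPD-L1, and Tbx21, the T-bet factor of Th1 cells, had 0.10 (standard error 0.17).

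Tnf, the second effector cytokine, followed Ifng with IgG2b. It was at 279, 271 and 337 normalized counts in Nr2f6+/+ and at 415, 445 and 453 in Nr2f6-/- mice. As for Ifng, the 3 Nr2f6-/- samples were all above the 3 Nr2f6+/+ samples. These were the 2 of 5 members tested whose groups did not overlap in this comparison, and 14.2% of all genes showed the same. On the log2 scale Tnf differed by 0.57 (95% interval −2.12 to 3.26), an interval that rests on the spread in all 4 groups.

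With αPD-L1 the values of Tnf scattered widely. They were 198, 0, 335, 58.5, 174 and 466 in Nr2f6+/+ mice and 483, 419, 292, 401, 68.4 and 612 in Nr2f6-/- mice. In the second Nr2f6+/+ replicate no read was found, which allows a level of up to the floor of 3 reads. Of the 6 Nr2f6-/- samples 4 lay above 5 of the 6 Nr2f6+/+ samples, whereas the fifth Nr2f6-/- replicate was among the low values, so that the groups overlapped.

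The log2 fold change of Tnf with αPD-L1 was 1.93 (standard error 0.93), with an unadjusted limma p of 0.0464 and an adjusted p of 0.507. It rested on the sample at 0: without it the value was 0.66, with an unadjusted limma p of 0.226. edgeR and DESeq2, which do not take the log of single values, gave 0.89 each. Within the first library set it was 3.27 and within the second 0.60. The SD of Tnf within groups, 2.08 on the log2 scale, was larger than that of 97.3% of 2188 genes of like mean, and 3.11% of those genes were at 0 in some sample. The sample without Tnf reads had the fewest genes detected, 11107, and the most tested genes at 0, 1724, against 492 to 1420 in the other samples. Its part in the value of Tnf beyond leaving it out was not tested.

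Around TNF, 17 genes of its receptors and of the NF-κB response were tested. With αPD-L1, 0 passed in limma between the genotypes, 7 were above and 10 below 0, and their median was −0.14. Scaled to the T cell markers, 3 were above and 14 below, with a median of −0.42, beside −0.27 over all genes. Without that scaling, the 2 genes with the lowest p-values of the list went opposite ways. Nfkb2 had a log2 fold change of −0.89 (standard error 0.34, limma adjusted p = 0.360). Tnfaip3, an inhibitor of NF-κB signaling that TNF induces, had a log2 fold change of 1.32 (standard error 0.31, limma adjusted p = 0.0634). It passed in DESeq2 (adjusted p = 0.00305) and in limma with a pseudocount of 10 (adjusted p = 0.0404), with the library set as a covariate (adjusted p = 0.0449) and in the first library set alone (adjusted p = 0.0459). In Nr2f6+/+ mice Tnfaip3 fell by 2.02 on the log2 scale with αPD-L1 against IgG2b (limma adjusted p = 0.00927), the 1 gene of the list that passed there, where 0.242% of all genes did and the macrophage marker sums fell as given above. Within the first library set it fell by 2.10 (limma adjusted p = 0.0338), and with the library set as a covariate by 1.78 (limma adjusted p = 0.0607). It was also among the genes displayed by the study.

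Il2, the growth factor that activated T cells make for themselves and their neighbours, was at 147, 444 and 308 normalized counts in Nr2f6+/+ and 195, 62.2 and 323 in Nr2f6-/- mice with IgG2b. With αPD-L1 it ran from 87.5 over a median of 151 to 433 in Nr2f6+/+ and from 144 over 222 to 313 in Nr2f6-/- mice. Every pair of groups overlapped. The 433 of the second Nr2f6+/+ αPD-L1 replicate stood apart from the next value in that group, 185, and this is the same sample that had no Tnf reads. The log2 fold change of Nr2f6-/- against Nr2f6+/+ was −0.78 with IgG2b (95% interval −2.33 to 0.77) and 0.41 with αPD-L1 (95% interval −0.69 to 1.50).

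The 9 genes of the IL-2 receptor and its signaling divided into 4 above and 5 below 0 in the same comparison with αPD-L1, with a median of −0.02 and 0 past the limma test. Their median was 0.10 in the first library set and −0.20 in the second. Scaled to the T cell markers, their median was −0.29, close to the −0.27 over all genes, and 0 were above and 9 below 0. Il2ra, the high-affinity chain of the receptor, had a log2 fold change of 0.03 (standard error 0.32) and Il2rb, a signaling chain, −0.07 (standard error 0.19). The intervals of Il2 itself held 0 in both comparisons of the genotypes.

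Il21, which helper T cells make and which sustains CD8 T cells and B cells, varied widely from sample to sample. It was at 93.1, 216 and 21.6 normalized counts in Nr2f6+/+ and at 62.8, 68.8 and 438 in Nr2f6-/- mice with IgG2b. With αPD-L1 it ran from 85.4 over a median of 173 to 412 in Nr2f6+/+ and from 23.1 over 242 to 389 in Nr2f6-/- mice. In Nr2f6-/- mice with IgG2b the third replicate lay far above the other 2, and no 2 groups were separate. Between the genotypes with αPD-L1 the log2 difference was −0.29 (95% interval −1.82 to 1.24), and it was 0.25 without the third Nr2f6-/- replicate, which had 19 reads. With IgG2b it was 0.70 (95% interval −1.47 to 2.86) and −0.21 without the third Nr2f6-/- replicate.

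Among the 10 genes of the IL-21 receptor and the follicular helper program, Tox and Tox2, related factors of chronically stimulated and helper T cells, were the ones that passed any of the comparisons of groups in limma. In Nr2f6-/- mice with αPD-L1 against Nr2f6+/+ mice with IgG2b, Tox rose by 1.05 (standard error 0.20) and Tox2 by 2.35 (standard error 0.45) on the log2 scale, with a limma adjusted p of 0.0092 for each. Tox2 also rose with αPD-L1 against IgG2b within Nr2f6-/- mice, by 2.30 (limma adjusted p = 0.0134), where 0.325% of all genes passed. Both comparisons use the same Nr2f6-/- αPD-L1 samples. Scaled to the T cell markers, Tox was at 0.54, beside −0.62 over all genes, and no longer passed (limma adjusted p = 0.150). Tox2 within Nr2f6-/- mice was at 2.44 in the first library set alone (limma adjusted p = 0.113). Between the genotypes with αPD-L1, Tox2 passed in DESeq2 (1.32, adjusted p = 0.0313) and in limma with the replicate number as a block (1.51, adjusted p = 0.0477), and not in limma otherwise. The receptor Il21r had a log2 fold change of −0.40 (standard error 0.19, limma adjusted p = 0.502) between the genotypes with αPD-L1.

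Il10, an inhibitory cytokine of regulatory and chronically stimulated T cells and of macrophages, showed the lowest p-value of the members between the genotypes with αPD-L1. It was at 256, 210, 61.7, 29.7, 469 and 448 normalized counts in Nr2f6+/+ mice and at 735, 799, 505, 407, 407 and 594 in Nr2f6-/- mice. In 4 of the 6 Nr2f6+/+ samples the level was below every Nr2f6-/- sample, whereas the fifth and sixth replicates, at 469 and 448, were above the 2 Nr2f6-/- samples at 407. With IgG2b it was at 424, 218 and 357 in Nr2f6+/+ and at 543, 361 and 673 in Nr2f6-/- mice, again with an overlap.

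Il10 averaged 574 ± 166 normalized counts in Nr2f6-/- mice with αPD-L1 against 246 ± 186 in Nr2f6+/+ mice (SD, n = 6 each). On the log2 scale it was higher by 1.73 (standard error 0.52, 95% interval 0.67 to 2.79), with an unadjusted limma p of 0.00234 and an adjusted p of 0.220, and so it did not pass over all genes. It was 1.23 in both edgeR and DESeq2 (adjusted p = 0.338 and 0.243), 2.15 within the first library set and 1.31 within the second. Leaving out each sample in turn gave values from 1.24 to 2.03. With IgG2b it was 0.67 (95% interval −0.84 to 2.17). The study displayed Il10 among genes picked from these samples, so this difference is no independent evidence.

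Markers of the cells known to make IL-10 were set beside it. Foxp3, which defines regulatory T cells, had a log2 fold change of −0.03 (standard error 0.40) between the genotypes with αPD-L1, and Ctla4, another marker of these cells that activated T cells express too, had 0.53 (standard error 0.30, limma adjusted p = 0.592). Ikzf2, a further marker of the list, went the other way from Ctla4, at −0.51 (standard error 0.20, limma adjusted p = 0.381). The sum of the 4 regulatory T cell markers ran from 4302 to 8322 normalized counts in Nr2f6+/+ and from 4554 to 7392 in Nr2f6-/- mice. With IgG2b Foxp3 was at 509, 249 and 221 normalized counts in Nr2f6+/+ and at 836, 518 and 791 in Nr2f6-/- mice. All 3 Nr2f6-/- samples were above the Nr2f6+/+ ones, as for 14.2% of all genes, with a log2 difference of 1.20 (limma adjusted p = 0.920). The part of regulatory T cells in the values of Il10 was not tested. The macrophage sums with αPD-L1 had a median of 1949 in Nr2f6-/- mice (929 to 2626) and 2499 in Nr2f6+/+ mice (1677 to 6815), with an overlap. The part of macrophages in the values of Il10 was not tested either. Prdm1, a regulator of Il10, had −0.0015 (standard error 0.19), and Maf, another regulator, −0.51 (standard error 0.23, limma adjusted p = 0.465). Nfil3, listed with them, was higher, at 0.69 (standard error 0.24, limma adjusted p = 0.323). Socs3, an inhibitor of cytokine signaling that IL-10 induces in macrophages, had 1.41 (standard error 0.33, limma adjusted p = 0.0634); it too was displayed by the study. Of the 8 genes of this list 0 passed in limma, while DESeq2 called Socs3 (adjusted p = 0.00384), as did limma with a pseudocount of 10 (adjusted p = 0.0445) and in the first library set alone (adjusted p = 0.00704).

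**Figure D2:**
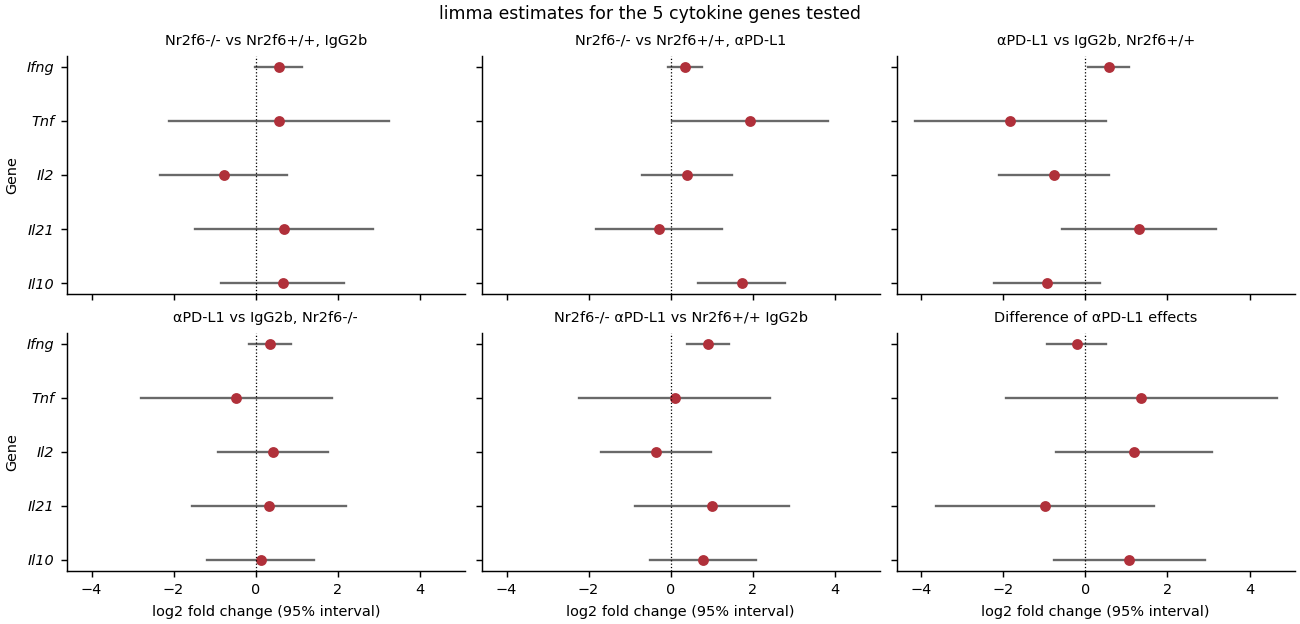
log2 fold changes (horizontal axis) of the 5 members tested, from limma, in the 6 comparisons; points are estimates and lines 95% intervals. The interval of Ifng in Nr2f6-/- αPD-L1 against Nr2f6+/+ IgG2b (0.40 to 1.41) lies above 0. So do those of Il10 (0.67 to 2.79) and Tnf (0.03 to 3.84) between the genotypes with αPD-L1. That of Ifng with αPD-L1 against IgG2b in Nr2f6+/+ mice lies above 0 too. No member passed after adjustment.

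Over the 6 comparisons, 0 of the 5 members tested passed in limma after adjustment. Before adjustment, p was under 0.05 for Il10 and Tnf between the genotypes with αPD-L1 (9.73% of all genes), for Ifng with αPD-L1 in Nr2f6+/+ mice (7.24%) and for Ifng between the ends of the order (9.04%). It was under 0.05 for 0 members between the genotypes with IgG2b (5.35%), 0 with αPD-L1 in Nr2f6-/- mice (9.7%) and 0 for the difference of the αPD-L1 effects between the genotypes (4.97%). edgeR called 0 members in each of the 6 comparisons, beside 0.183%, 0%, 0.158%, 0.3%, 0.342% and 0% of all genes in the order of the comparisons given next. DESeq2 called Ifng in the one named above and 0 members in the others, beside 1.53%, 0.734%, 0.784%, 1.92%, 1.48% and 0.634% of all genes. The limma test called 21 of 11992 genes between the genotypes with αPD-L1, 0 with IgG2b (0%), 29 with αPD-L1 in Nr2f6+/+ mice, 39 in Nr2f6-/- mice, 74 between the ends of the order and 0 for the difference of effects (0%). Members whose groups did not overlap numbered 0 between the genotypes with αPD-L1, where 0.592% of all genes did not, 0 with αPD-L1 in Nr2f6+/+ mice (4.54%) and 0 in Nr2f6-/- mice (5.12%).

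The difference of the αPD-L1 effects, Nr2f6-/- minus Nr2f6+/+, was −0.21 for Ifng (95% interval −0.93 to 0.50), 1.07 for Il10 (−0.77 to 2.90), 1.19 for Il2 (−0.71 to 3.08), −0.99 for Il21 (−3.64 to 1.67) and 1.37 for Tnf (−1.93 to 4.66), all on the log2 scale. Each interval held 0. For the members other than Ifng the intervals were wide enough to hold a 4-fold difference in at least 1 direction.

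**Figure D3:**
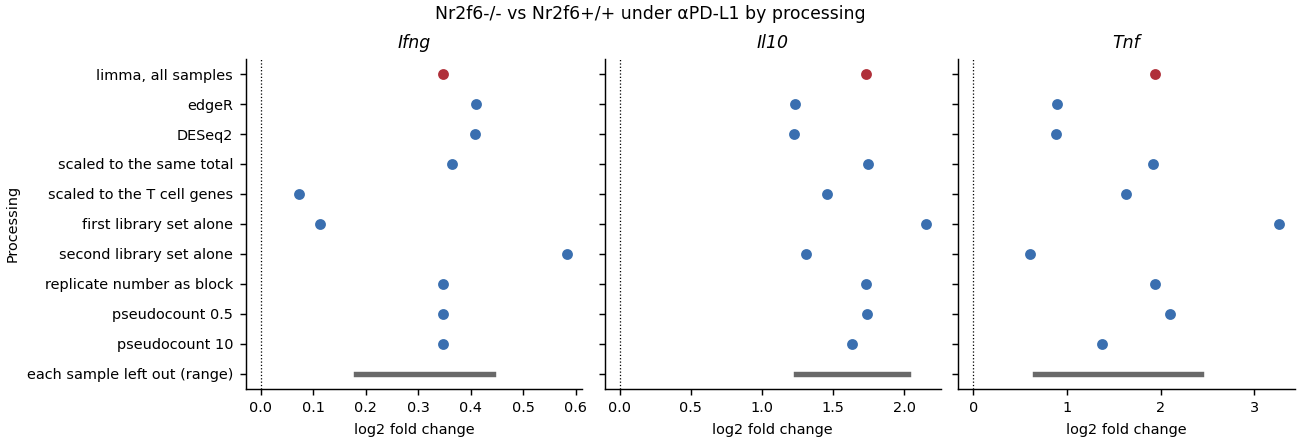
log2 fold change (horizontal axis) of Ifng, Il10 and Tnf in Nr2f6-/- against Nr2f6+/+ mice with αPD-L1 under each way of processing (vertical axis); the red point is limma over all samples and the grey bar the range over leaving out each sample. Il10 lies between 1.23 and 2.15 at the points, Tnf between 0.60 and 3.27, and Ifng between 0.07 and 0.58.

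The Th17 cytokines came from single samples. Il17a, the defining cytokine of Th17 cells and of a class of γδ T cells, had 128 reads (122 normalized counts) in the first Nr2f6-/- IgG2b replicate and 0 in the other 17 samples. Il17f, its close relative, had 3 reads in that same sample and 21 in the fifth Nr2f6+/+ αPD-L1 replicate, and 0 elsewhere. A level of 0 reads allows up to the floor, at most 3.64 normalized counts. Il22, which acts on epithelia, had 4 reads in all, from 3 samples, none of them at the floor of 3 reads.

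No group comparison of these genes can be drawn, since in each group most samples were at 0. The γδ marker Trdc had 49 reads in the sample with Il17a, within the range of the others (2 to 225). Of 16 genes listed for the IL-17 program, 11 were tested and 0 passed in limma between the genotypes with αPD-L1, with 3 above and 8 below 0 and a median of −0.44. In the second library set alone 6 were above and 5 below, with a median of 0.08. In the first alone the median was −0.55, and Stat3, through which IL-23 signals, passed at −0.90 (limma adjusted p = 0.0412). Il23r, which sustains Th17 cells, had a mean below 1 normalized count in each of the 4 groups.

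Of the type 2 cytokines, Il4, which turns helper cells to the type 2 fate, had 0 reads in all 18 samples. Il13, which acts on epithelia and macrophages, had 90 reads in 6 samples, of which 52 (42.7 normalized counts) were in the fifth Nr2f6+/+ αPD-L1 replicate. The sample with most Il13 was thus the one with most Il17f. The other samples at or above 3 reads were the first Nr2f6+/+ IgG2b replicate with 8, the fourth Nr2f6+/+ αPD-L1 replicate with 13 and the third Nr2f6-/- αPD-L1 replicate with 14.

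Gata3, the master factor of type 2 cells, which other T cells express too, had between 735 and 2452 reads in every sample, so its RNA was present where Il4 and Il13 were not. Mast cells and basophils are the other main makers of IL-4, and 7 of their markers were looked at. Mcpt8, Cpa3 and Ms4a2 were at 0 in all 18 samples, and Mcpt4 and Fcer1a stayed below 1 normalized count on average in each group. Gata2 reached 70.2 in 1 Nr2f6-/- αPD-L1 sample. Kit, which other cells express too, had the highest mean of the list in each group and was the 1 marker tested. It reached 210 in Nr2f6+/+ IgG2b, 239 in Nr2f6-/- IgG2b, 289 in Nr2f6+/+ αPD-L1 and 89.9 in Nr2f6-/- αPD-L1, with group medians between 7.29 and 44.7 normalized counts. Of 10 genes of the type 2 program 7 were tested and 0 passed in limma between the genotypes with αPD-L1, with 2 above and 5 below 0 and a median of −0.74. That median was −0.24 with a pseudocount of 10 and −0.22 in the second library set, and in the first library set it turned to 0.40, with 5 above and 2 below. Il5 and Il9, further type 2 cytokines, had means below 1 normalized count in each group.

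**Figure D4:**
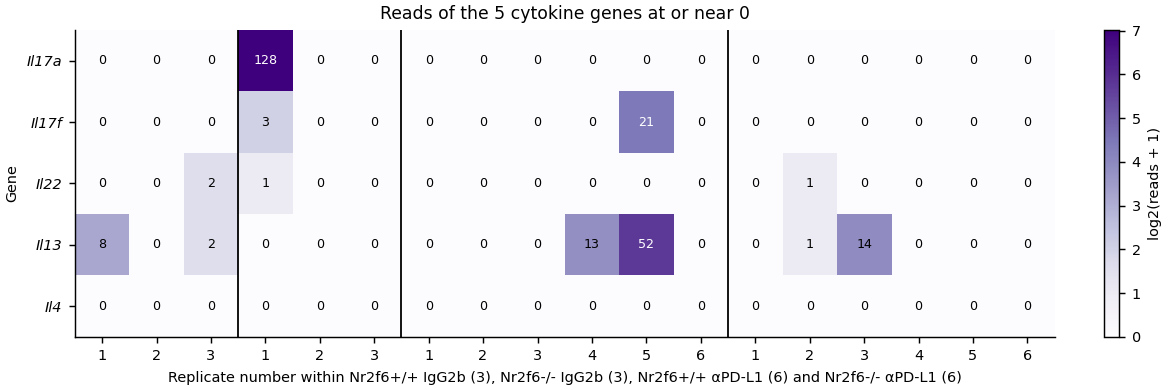
Reads (number and color, on a log2(reads + 1) scale) of the 5 members at or near 0, with a row per gene and a column per sample, by group. Il4 is at 0 throughout, the 128 reads of Il17a are in 1 sample, and 52 of the 90 reads of Il13 are in another.

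NFAT, whose core letters are marked in the promoters above, and AP-1, which had no match in the windows shown, were set beside the cytokines by their own RNA. Of 16 genes for the NFAT proteins, the calcineurin subunits that activate them and the AP-1 proteins, 15 were tested. Between the genotypes with αPD-L1, 0 passed in limma and edgeR, 13 were above and 2 below 0, and the median was 0.71 beside −0.0049 over all genes. Scaled to the T cell markers, 11 were above and 4 below 0 with a median of 0.43, beside −0.27 over all genes, and in the second library set alone 10 were above 0. With IgG2b the split between the genotypes was 7 above and 8 below. With αPD-L1 against IgG2b, 12 were below 0 in Nr2f6+/+ mice, with a median of −0.98 beside −0.10 over all genes. In Nr2f6-/- mice 9 were below 0, with a median of −0.15 beside −0.04. In Nr2f6-/- αPD-L1 against Nr2f6+/+ IgG2b, 10 were below 0, with a median of −0.14 beside −0.12. The list was thus not above its level in Nr2f6+/+ IgG2b.

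Nfatc1, the NFAT form that activated T cells induce, ran from 3864 to 6023 normalized counts in the 6 Nr2f6-/- samples with αPD-L1 and from 2025 to 3639 in the 6 Nr2f6+/+ samples, with no overlap, as for 0.592% of all genes tested. Its log2 fold change was 0.78 (standard error 0.18), with a limma adjusted p of 0.0618, 0.0688 in edgeR and 0.00305 in DESeq2. Ppp3cc, a calcineurin subunit, had 1.35 (standard error 0.43, limma adjusted p = 0.257) and Junb, an AP-1 protein, 0.81 (standard error 0.33, limma adjusted p = 0.390). Nfatc1, Ppp3cc and Junb were among the genes that the study displayed from these samples, so that the count of this list is no independent evidence of its direction.

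With αPD-L1 against IgG2b, the AP-1 genes Fos and Fosl2 fell in Nr2f6+/+ mice, by 2.69 (standard error 0.52, limma adjusted p = 0.0130) and by 1.58 (standard error 0.30, limma adjusted p = 0.0115) on the log2 scale. Fosl2 also fell in Nr2f6-/- mice, by 1.50 (limma adjusted p = 0.0146). Within the first library set the limma adjusted p was 0.0492 for Fos, and for Fosl2 it was 0.0909 in Nr2f6+/+ and 0.143 in Nr2f6-/- mice, which do not pass. Macrophages express both genes, and the macrophage marker sums fell in the same comparisons. The share of that fall in the 2 genes was not tested.

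**Figure D5:**
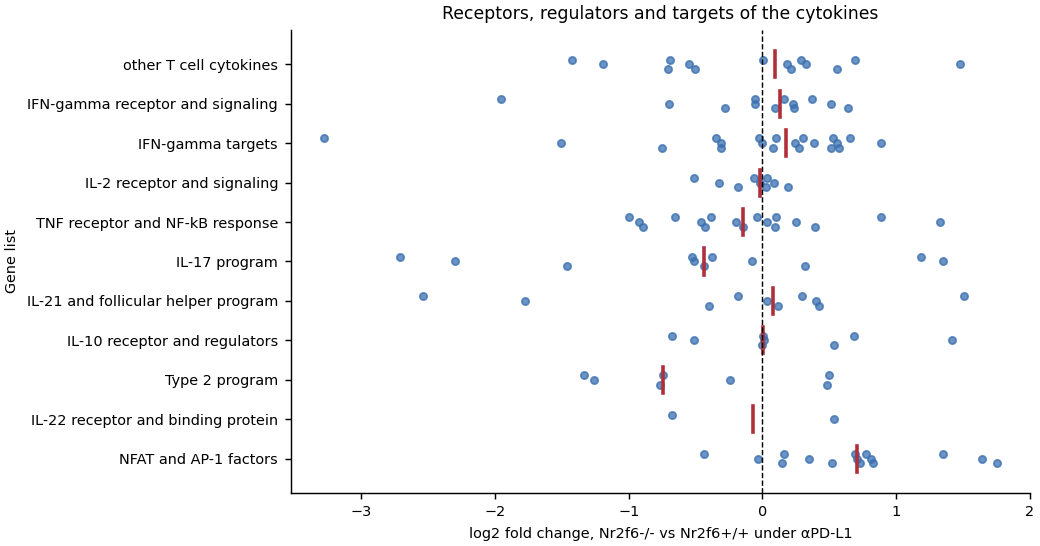
log2 fold changes (horizontal axis) of Nr2f6-/- against Nr2f6+/+ mice with αPD-L1 for the genes around the cytokines (vertical axis, gene lists); points are genes tested, red bars list medians and the dashed line the median of all genes. The median of the NFAT and AP-1 list is 0.71, and that of the IFN-γ targets 0.17. Scaled to the T cell markers they are 0.43 and −0.10, beside −0.27 over all genes. No gene shown passed in limma over all samples.

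The other cytokine genes of T cells gave no call either. Of 20 such genes, among them Ltb, Xcl1, Fasl and Areg, 14 were tested. Between the genotypes with αPD-L1, 8 were above and 6 below 0, with a median of 0.09. Scaled to the T cell markers, 5 were above and 9 below, with a median of −0.18, beside −0.27 over all genes. Spp1, a secreted protein that macrophages make in larger amounts than T cells, had the lowest p-value, at 1.48 on the log2 scale (standard error 0.63, limma adjusted p = 0.426).

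The genes whose level followed each cytokine most closely over the 18 samples, by Pearson's r of log2 values over 9639 genes with a mean of at least 50, were described without a test. For Ifng they included Mob1a (r = 0.76), Nucb1 (0.73) and Havcr2 (0.71), the last the gene of the inhibitory receptor TIM-3. For Il10 they were Nit1 (0.86), Ppp1r15a (0.85), Ctla4 (0.85), the inhibitory receptor of regulatory and activated T cells, Fchsd2 (0.84) and Glyr1 (0.84). For Tnf they were Snd1 (0.92), Ep300 (0.91), Uvrag (0.91), Rabgef1 (0.91) and 2610035D17Rik (0.90), where the sample at 0 weighs on each r. Il2 was closest to Zfp217 (0.79) and Il21 to Utp11l (0.74). Points share the library and its depth, and the groups differ, so r holds group differences as well.

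Among themselves the 5 members had an r over the 18 samples from −0.40 (Tnf and Il2) to 0.37 (Tnf and Il10). Taken within groups, these pairs had −0.61 and 0.12, and the sample with Tnf at 0, which had the highest Il2 of its group, weighs on both. Over all samples Ifng had a negative r with each of the other 4, between −0.13 and −0.03. The sample with the highest Ifng, the fifth Nr2f6-/- αPD-L1 replicate at 8672, was the one with the lowest Tnf of its group, 68.4.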

How the data were processed

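RNA of CD3+ TILs was sequenced with a kit that reads 3′ ends of transcripts, from 20 ng RNA per sample. The authors trimmed reads with Cutadapt and Trimmomatic, dropped those under 22 bases, mapped them to mm10 with STAR and Bowtie2 and counted reads per gene with HTSeq. They deposited a signal per gene and sample, the count divided by a size factor, with replicates not pooled. The strand setting, annotation and versions are not given in the sources used here, so overlapping genes are uncertain. All 18 columns were used; the study's legend gives 5 samples for each αPD-L1 group, where the labels give 6. No 2 were identical (0 of 153 pairs).

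Dividing each column by its smallest step gave whole reads for 100% of values above 0 (tolerance 0.01 reads). Because the values are normalized, limma 3.58.1 (R 4.3.3, eBayes with trend) was the main test, on log2(normalized count + 1) in 1 model of the 4 group means over 18 samples, for 11992 genes with a mean of at least 10. Fold changes on this scale understate low genes. Tests were two-sided, with Benjamini-Hochberg adjustment over all genes tested and a threshold of 0.05; where no other tool is named, standard errors and intervals are from limma. edgeR 4.0.16 and DESeq2 1.42.0 were run on the recovered reads as alternatives, and the 3 tests were tested on simulated data. Other alternatives were pseudocounts of 0.5 and 10, a minimum mean of 50 or none, other scalings, the library set as a covariate or alone, the replicate number as a block, only the groups compared, and leaving out each sample. Replicate numbers are shared between groups, but samples with the same number did not deviate together, so they give no pairing.

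Genes named were the members, Nr2f6, genes of the lists that passed, the 2 with the lowest p per list, receptors, master factors and defining markers, and the 5 genes closest to each member by r. Some genes that this rule names are not reported here. The members, lists and rules were chosen with earlier results of these data known. Stat3, Il23r, Il5, Il9 and the mast cell and basophil markers are list genes named after their values were seen. The study's enrichment results were not used here. Promoter sequences and gene positions are from RefSeq tables for GRCm38.p6, the assembly of mm10.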

Additional observations from a re-analysis of the deposited data

Results flagged for a closer look

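In groups of 6 samples, a value was singled out where its gap to the nearest other sample was a large part of the whole range (Dixon's test at 95%). Chance singles out about 1 in 20 groups, and 14 groups of member genes were tested. Il2 was at 433 normalized counts in the second Nr2f6+/+ αPD-L1 replicate, with the next sample at 185. Il17f was at 17.3 in the fifth Nr2f6+/+ αPD-L1 replicate and at 0 in the other 5. Il22 was at 0.868, a single read, in the second Nr2f6-/- αPD-L1 replicate and at 0 in the other 5. Il13 was at 42.7 in the fifth Nr2f6+/+ αPD-L1 replicate with the next sample at 12.1, and at 17.0 in the third Nr2f6-/- αPD-L1 replicate with the next at 0.868. For the last 3 genes, most samples at 0 make any sample with reads stand apart.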

How the results depend on the processing

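The count of members called stayed at 0 in each of the 6 comparisons under every alternative run, except with DESeq2 in Nr2f6-/- αPD-L1 against Nr2f6+/+ IgG2b, where it was 1 (Ifng, log2 fold change 0.98). Of the values recomputed, 885 kept their direction and their side of the threshold and 14 turned in direction, none of them past the threshold. Il21 between the genotypes with αPD-L1 was 0.41 in the second library set alone and ran from −0.55 to 0.25 with 1 sample left out; with IgG2b it ran from −0.21 to 1.44. In Nr2f6-/- mice, αPD-L1 against IgG2b, leaving out 1 sample gave −0.12 to 0.32 for Il10, −0.24 to 0.94 for Il2 and −0.17 to 1.23 for Il21. There, scaling to the T cell genes gave −0.14 for Il10, beside −0.30 over all genes. Tnf in Nr2f6-/- αPD-L1 against Nr2f6+/+ IgG2b was −0.41 scaled to the T cell genes, beside −0.62 over all genes. It was −0.26 with the library set as a covariate and −0.088 to 0.54 with 1 sample left out. The cause was not tested. With the replicate number as a block it was −0.26 too, and the block changed no call of a member; samples with the same number had an r of their deviations between −0.03 and 0.04 (21 pairs), so the numbers do not pair the samples.

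The number of all genes called depended on the tool. Between the genotypes with αPD-L1 it was 21 in limma, 22 in edgeR and 184 in DESeq2, and with IgG2b 0, 0 and 88. For αPD-L1 against IgG2b it was 29, 19 and 94 in Nr2f6+/+ and 39, 36 and 230 in Nr2f6-/- mice, for Nr2f6-/- αPD-L1 against Nr2f6+/+ IgG2b 74, 41 and 177, and for the difference of effects 0, 0 and 76. The 5 low members had 0 reads in most samples and were not tested.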
